A study of Homo sapiens with 12 samples.

Results

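What MOLM14 cells look like when retinoic acid and the RIP140 knockdown act together is the subject here: the 3 libraries given all-trans retinoic acid (ATRA) and doxycycline were set against the 3 untreated libraries, 6 of the 12 libraries of the study. The libraries were taken by their labels, as the count columns of the combined treatment and of the untreated cells; the comparison itself was picked with earlier results of these data known. MOLM14 is an established cell line from a human acute myeloid leukemia with monocytic features. Every library, untreated ones included, came from MOLM14 cells carrying an shRNA against RIP140 that doxycycline switches on. The combined group received ATRA at 1 µM for 48 h and doxycycline at 50 ng/mL, renewed every other day, and the untreated group received neither. The labels do not say how long doxycycline was given before ATRA. The ATRA group (3 libraries) received only the retinoid and the DOX group (3 libraries) only doxycycline. The submitters call the 3 libraries of a group biological replicates. Cells with another hairpin, or without one, were not analysed here, so doxycycline itself and the loss of RIP140 cannot be told apart in the combined group. In bulk RNA, fewer cells of a kind and less RNA per cell cannot be told apart either.

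Retinoic acid binds the retinoic acid receptors (RARA, RARB, RARG), which sit on DNA as dimers with the retinoid X receptors, often at a pair of like-oriented half-sites called a direct repeat. Without ligand the dimer holds corepressors, and with ligand it takes up coactivators and transcription of its targets starts. RIP140, encoded by NRIP1, is a coregulator that binds the liganded receptors and recruits repressive enzymes, and NRIP1 is itself a retinoid target. In myeloid leukemia cells ATRA is known for driving differentiation, in which cells take on surface, granule and migration genes of mature myeloid cells and divide less.

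Of the 11 genes set as marks of a myelomonocytic leukemia, 9 were measured clearly in untreated cells. CEBPA, FLT3, LYZ, SPI1 and MPO led with means of 618, 265, 205, 176 and 153 CPM, counts scaled to the library's TMM-adjusted total. CD14 and CD68 were nearly absent, with means of 0.181 and 0.437 CPM in untreated and 0.219 and 0.986 CPM in combined libraries. Marks of other lineages were at or near 0: CD3E, PF4, HBB, COL3A1, DCN and EPCAM had no count in any of the 6 libraries. The exception was PAX5, a B-cell regulator, at 67.4 CPM in untreated cells.

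Total counts ran from 10370231 to 18066027 in the untreated and from 9454825 to 16066674 in the combined libraries, and from 2685984 to 19358619 over all 12. Of 61487 gene identifiers, 16104 passed the filter on low counts and were tested. The share of counts from mitochondrial ribosomal RNA was 2.54, 2.85 and 4.60% in untreated libraries against 1.98, 2.02 and 1.23% in combined libraries, so replicate 3 of each group lay at opposite ends. All untreated shares lay above all combined ones. A model term for this share is fitted from differences between libraries within the 4 groups. Whether the treatment itself changed the share was not tested. Genes with at least 1 count numbered 24843, 25483 and 28650 in the untreated libraries and 26601, 24232 and 22519 in the combined ones. Counts or medians of gene lists that moved by over 1.5 times with the share in the model, or without both replicates 3, are given with those values. Combined replicate 1 stood apart in several genes: KLF2, an early response factor, was at 7.52, 24.6 and 21.9 CPM in the combined libraries.

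**Figure D1:**
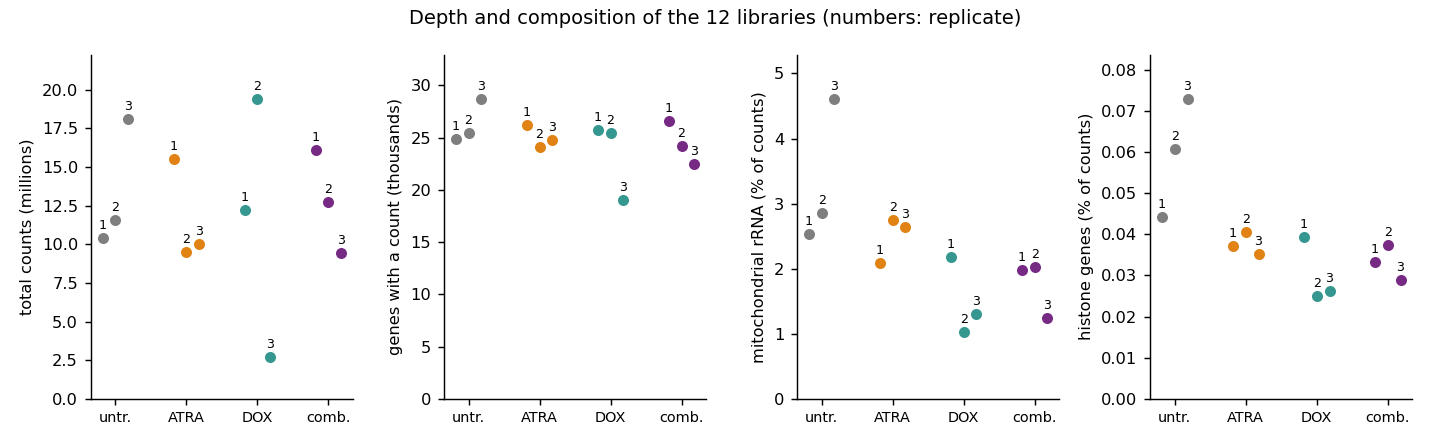
Depth and composition of the 12 libraries: total counts, genes with a count, and the percentage of counts from mitochondrial ribosomal RNA and from replication-dependent histone genes, 1 point per library with its replicate number. Untreated replicate 3 has the highest share of both RNA classes, and the deepest library, DOX replicate 2, has the lowest.

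The promoters of 3 responding genes show the kind of site through which retinoid receptors act, and are printed because all 3 genes were low or at 0 without ATRA. A direct repeat with 5 bases between its half-sites (DR5) was searched as a pair of half-sites in the same orientation, each reading AGGTCA with G also allowed at the first position and T at the third, on both strands, in the RefSeq promoters of build GRCh38.p14, which run from 250 bases before to 50 after each gene start. Only 31 of 35116 promoters (0.0883%) held one. A stretch of 100 bases upstream of 1 start of each gene is written 5′ to 3′ along the gene, with the repeat in capitals. In RARB and BATF2 it reaches the start, and in CYP26A1 it ends before it. RARB is at chr3:25428163-25428262 (plus strand), CYP26A1 at chr10:93073761-93073860 (plus strand) and BATF2 at chr11:64990278-64990377 (minus strand).
RARB: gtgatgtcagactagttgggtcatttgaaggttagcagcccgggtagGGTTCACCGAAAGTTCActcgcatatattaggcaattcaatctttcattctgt
CYP26A1: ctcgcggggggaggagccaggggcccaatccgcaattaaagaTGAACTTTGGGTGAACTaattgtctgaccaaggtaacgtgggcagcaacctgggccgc
BATF2: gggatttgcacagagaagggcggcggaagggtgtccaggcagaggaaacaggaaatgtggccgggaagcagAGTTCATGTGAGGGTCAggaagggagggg
The repeat lies 53 to 37 bases upstream of the start in RARB, 90 to 74 bases upstream in CYP26A1, where it is on the opposite strand, and 29 to 13 bases upstream in BATF2. A match of letters is a description and not a bound site, and the 3 genes printed were picked from responding ones. Among the 8 tested genes with such a promoter 3 were called higher and 2 lower in combined cells. The shares over all genes tested were 19.6% and 18.5%. The lower ones were FSCN2 (log2 change −1.77) and HROB (−0.62).

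RARB, a retinoic acid receptor and a classical target of its own ligand, stood at 0.580, 1.11 and 1.33 CPM without treatment, 1.78, 1.49 and 1.64 in the ATRA libraries, 0.478, 0.878 and 0.384 in the DOX libraries and 3.79, 5.30 and 5.31 in the combined libraries. All 3 combined values lay above the other 9. RARB was also named for exceeding both single treatments, which requires no overlap with the ATRA and DOX libraries. The change against untreated was 2.17 ± 0.31 on the log2 scale (adjusted p = 1.3e-05). CYP26A1, the enzyme that breaks retinoic acid down, had 0 counts in all 3 untreated and all 3 DOX libraries, 10, 6 and 13 counts in the ATRA libraries and 14, 5 and 7 in the combined ones. It was too low to be tested; the combined level was at least 9.08-fold higher than untreated, set against 3 counts over the group. BATF2, a transcription factor of the interferon response, had 0 untreated counts and 47, 36 and 26 combined counts, which is at least 38.1-fold higher, against 59, 43 and 30 counts with ATRA alone.

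NRIP1, the target of the hairpin (chr21:14961235-15065936 in GRCh38), was measured at 59.7, 58.9 and 53.3 CPM without treatment and at 15.9, 20.9 and 19.9 CPM after the combined treatment. The groups did not overlap, and the combined level was 32.8% of untreated. The log2 change was −1.61 ± 0.13 (SE, n = 3 and 3, adjusted p = 3.42e-09). Every adjusted p here comes from edgeR's quasi-likelihood test with Benjamini-Hochberg adjustment. Each SE after ± is worked back from the F statistic of that test, whose spread was estimated over all 12 libraries. DOX libraries, at 19.2, 15 and 15.7 CPM, overlapped the combined ones, and the difference between these groups was 0.16 ± 0.14 (adjusted p = 0.481). ATRA alone left NRIP1 at 38.4, 41.1 and 51.9 CPM, above all 3 combined libraries, a difference of −1.22 ± 0.13 (adjusted p = 6.49e-06).

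The combined treatment changed 6123 of the 16104 genes tested (38.0%) at an adjusted p under 0.05, the rule by which a gene is called here. Of these, 3149 were called higher (19.6% of genes tested) and 2974 lower (18.5%). These shares are the background for all list counts against untreated. The libraries of the groups did not overlap for 8244 genes (51.2%). At a change of at least 1 on the log2 scale, that is 2-fold, 1749 genes were called (10.9%), 783 higher and 966 lower. Large increases outnumbered large decreases: 68 called genes rose by 4 or more on the log2 scale and 2 fell by as much, while between 1 and 2 the counts were 486 and 786. The median change over all genes tested was −0.01. The count of called genes was 3363 with the share of mitochondrial ribosomal RNA in the model, 3349 without both replicates 3 and 3338 with all libraries thinned to the same depth. Of these, 1977, 1950 and 1724 were higher and 1386, 1399 and 1614 lower. List counts under these alternatives belong beside this fall over all genes.

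**Figure D2:**
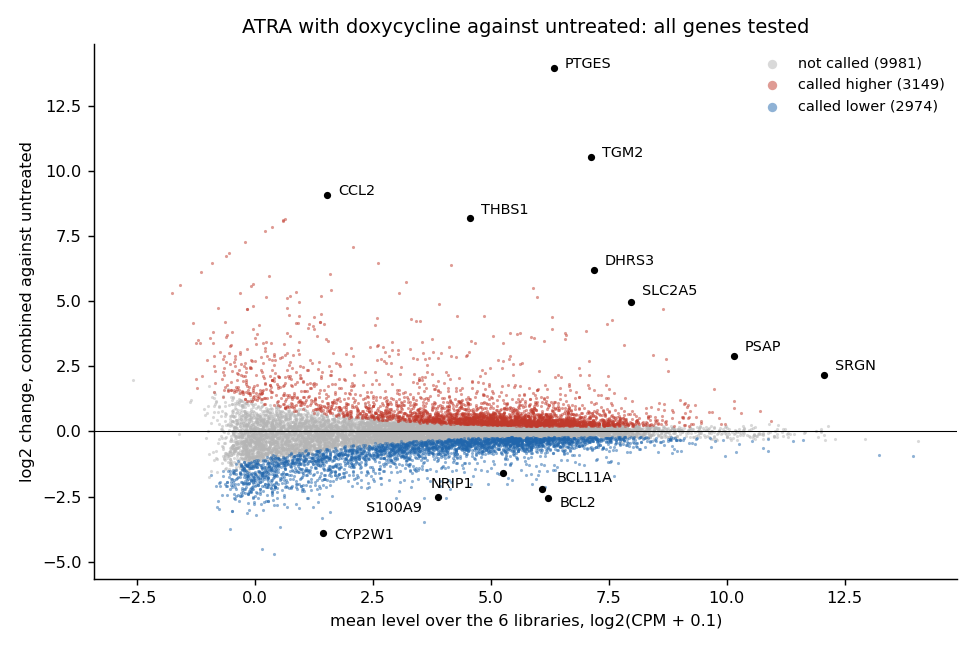
Each point is 1 of the 16104 genes tested, placed by its mean level over the 3 untreated and 3 combined libraries (horizontal, log2 of CPM with 0.1 added) and its log2 change in combined cells (vertical). The upper arm reaches further from 0 than the lower one: PTGES, TGM2, CCL2 and THBS1 lie above 8 and CYP2W1 near −4. PTGES and CCL2 had no untreated counts, so their height depends on the small count the model assumes.

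Protein-coding genes and noncoding genes differed in their balance. Of 11976 protein-coding genes, 23.4% were called higher and 16.7% lower, whereas of 2989 long noncoding genes 8.80% were higher and 21.9% lower, and of 698 pseudogenes 6.16% and 29.8%. The excess of lower noncoding genes depended on the alternative used, and fewer protein-coding genes were called as well. With the mitochondrial ribosomal RNA share in the model, 5.92% of long noncoding genes were higher and 6.49% lower, and without both replicates 3 the values were 5.44% and 7.49%. At equal depth they were 5.87% and 14.3%. Protein-coding genes were 14.6% higher and 9.42% lower with the share in the model, and 14.3% and 8.92% without both replicates 3. At equal depth 15.1% of them were higher and 12.2% lower. Whether library composition accounts for these shifts was not tested.

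Among the 12 largest increases that met the naming rule, which asks for no overlap between the groups compared, PTGES stood first. This gene encodes prostaglandin E synthase, which makes prostaglandin E2. It had 0 counts without treatment and 115, 188 and 180.0 CPM after the combined treatment, at least 2068-fold higher. ATRA alone gave 54.7, 55.6 and 53.5 CPM, below all 3 combined values, and DOX alone gave 2 counts over 3 libraries. TGM2, the transglutaminase long known as a retinoid target in myeloid cells, rose from 0.386, 0.257 and 0 CPM to 279, 247 and 313 CPM, a log2 change of 10.56 ± 0.27 (adjusted p = 9.86e-17), and ATRA alone gave 313, 253 and 351 CPM. THBS1, the secreted adhesion protein thrombospondin 1, went from 0.0966, 0.0857 and 0.221 CPM to 47.8, 48.2 and 45.2 CPM (8.21 ± 0.28; adjusted p = 3.54e-15). In all 3 genes the untreated libraries were at or near 0 and far below every combined library.

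The chemokine gene CCL2, which attracts monocytes, had no untreated count and was at 1.26, 8.51 and 7.05 CPM in combined libraries, at least 67.0-fold higher, with replicate 1 well below the other two. MLXIPL, a glucose-sensing transcription factor, had 2 untreated counts and 317 combined counts, a ratio of 166 with an exact 95% counting interval of 45.6 to 1377. DHRS3, which reduces retinaldehyde back to retinol, rose from 2.71, 3.77 and 4.81 CPM to 232, 294 and 333 CPM (6.19 ± 0.16). Both GBP4 and GBP5, guanylate-binding proteins of the interferon response, were among the 12, with log2 changes of 6.45 ± 0.37 and 5.74 ± 0.31. The others were RHBDL3 (6.40), the receptor gene IL31RA (5.51), LINGO1 (5.42) and GDF15, a stress-induced cytokine (5.33).

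The 12 largest decreases that met the rule were smaller. BCL2, the anti-apoptotic protein, fell from 126, 126 and 132 CPM to 22.8, 21.4 and 20.2 CPM, with a log2 change of −2.57 ± 0.10 (adjusted p = 3.23e-14). BCL11A, a transcription factor of progenitor and lymphoid cells, fell from 104, 101 and 131 CPM to 27.7, 22.6 and 21.9 CPM (−2.21 ± 0.11; adjusted p = 1.5e-12). For both genes the groups were far apart and the libraries within a group close together. S100A8 and S100A9, the calprotectin subunits of neutrophils and monocytes, fell together, from means of 13.7 and 25 CPM to 2.17 and 4.23 CPM, with log2 changes of −2.56 ± 0.24 and −2.52 ± 0.20.

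CYP2W1, a cytochrome P450, had the largest fall among these 12, from 5.22, 4.20 and 5.30 CPM to 0.241, 0.241 and 0.542 CPM (−3.92 ± 0.37; adjusted p = 4.84e-08). RGS18, a regulator of G-protein signalling in blood cells, changed by −3.32, and CNR2, the cannabinoid receptor of immune cells, by −2.27. CSRP3 (−2.89), ADAMTS14 (−2.71), TNFRSF19 (−2.55), MAML2 (−2.41) and the long noncoding RNA XACT (−2.20) were the remaining ones.

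Listed retinoid targets rose, while the receptors moved in both directions. All gene lists were chosen with earlier results of these data known, so their counts are descriptions and not tests. Of 19 measured retinoid effector genes 18 were called higher and none lower (background 19.6% and 18.5%), with a median log2 change of 2.77, against −0.01 for all genes; the median was the same with the 3 genes lacking untreated counts set at their bound. CD38, an ectoenzyme and a standard marker of the retinoid response, rose from 13, 15.2 and 13.4 CPM to 165, 189.5 and 186 CPM (3.70 ± 0.11). HIC1, a transcriptional repressor, rose from 13.8, 11.7 and 13.1 CPM to 151, 182 and 198 CPM (3.78 ± 0.12), and SAMHD1, a dNTP hydrolase, from 109.8, 102 and 112 CPM to 710.5, 703 and 792 CPM (2.77 ± 0.09). In each of the 3 genes all combined libraries lay far above all untreated ones.

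Enzymes that handle retinoids moved in both directions, with 4 of 8 measured genes called higher and 2 lower. Beside DHRS3, CYP26B1, which degrades retinoic acid, rose from 5.6 to 27.4 CPM (2.29 ± 0.13). ALDH1A3, which makes retinoic acid from retinaldehyde, fell from 28.3, 24.3 and 22 CPM to 8.66, 4.33 and 3.25 CPM (−2.11 ± 0.20). DHRS9, another retinoid dehydrogenase, rose from 20.8 to 70.6 CPM (1.77 ± 0.12).

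Among 17 retinoid and partner receptors, 6 were higher and 5 lower (background 19.6% and 18.5%). Their median was 0.17, but 0.33 with the mitochondrial ribosomal RNA share in the model or without both replicates 3, and −0.01 at equal depth. RXRA, the obligate partner receptor, fell from 256, 263 and 254 CPM to 129.6, 105 and 116 CPM (−1.14 ± 0.08; adjusted p = 1.06e-09). The orphan receptors NR2F6 and ESRRA and the oxysterol receptor NR1H2 rose by 0.58, 0.50 and 0.54. Of 24 receptor coregulators 4 were higher and 6 lower, near the background shares. LCOR, a ligand-dependent corepressor, fell from 89.1, 89.6 and 119.7 CPM to 51.5, 39.2 and 31.7 CPM (−1.28 ± 0.17), and the coactivator NCOA3 rose by 0.81 ± 0.12.

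Interferon-stimulated genes rose as a body: 38 of 45 measured members were called higher and none lower, with a median log2 change of 1.36. IFI6, a mitochondrial antiviral protein, went from 0.870, 1.20 and 0.773 CPM to 21.8, 14.6 and 19.9 CPM (4.33 ± 0.26; adjusted p = 3.11e-11). IFIT3, which binds viral RNA complexes, went from 1.55, 1.46 and 1.88 CPM to 15, 9.63 and 19.1 CPM (3.12 ± 0.26). BST2, or tetherin, which holds budding virus at the membrane, went from 44.3, 47.9 and 47.9 CPM to 153, 152 and 161 CPM (1.73 ± 0.09). In all 3 genes the groups were wide apart. With all libraries thinned to equal depth only 34 members could be tested, of which 24 were called higher and 1 lower.

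The promoters of these 3 genes are shown because interferon-response genes share a short element, searched here as TTTCNNTTTC on both strands of the same RefSeq promoters; it overlaps the longer ISRE motif. It was present in 1255 of 35116 promoters (3.57%), in 4.18% of the 10648 tested genes with a promoter in the table, and in 24 of the 33 measured interferon-stimulated genes with one. In the 80 bases printed for each, 5′ to 3′ along the gene, the matches are in capitals and appear as GAAANNGAAA where they lie on the opposite strand; IFI6 is at chr1:27672273-27672352 (minus strand), IFIT3 at chr10:89332421-89332500 (plus strand) and BST2 at chr19:17405713-17405792 (minus strand), in GRCh38.p14.
IFI6: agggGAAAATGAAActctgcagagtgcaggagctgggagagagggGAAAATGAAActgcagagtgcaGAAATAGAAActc
IFIT3: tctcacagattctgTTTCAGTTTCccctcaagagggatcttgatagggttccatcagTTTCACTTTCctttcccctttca
BST2: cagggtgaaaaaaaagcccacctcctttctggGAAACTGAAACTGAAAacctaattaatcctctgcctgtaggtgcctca
IFI6 held 3 matches 156 to 84 bases upstream of its start, IFIT3 held 2 between 94 and 42 bases upstream of this start, and BST2 held 2 overlapping ones between 130 and 115 bases upstream.

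Genes of antigen presentation rose as well. In the class I pathway, which shows peptides from inside the cell, 15 of 20 measured members were higher and 1 lower (median 0.68). PSMB9, an immunoproteasome subunit, rose from 35.4, 31.1 and 30.4 CPM to 107, 100.2 and 124 CPM (1.78 ± 0.10), and TAP1, the peptide transporter, by 1.11 ± 0.09. HLA-C rose by 1.09, with the reservation that class I genes are near copies of each other and reads may have been shared.

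In the class II pathway 10 of 15 members were higher and none lower (median 0.57). HLA-DRA, the constant chain of HLA-DR, was at 0.676, 0.429 and 0.552 CPM untreated and 12.5, 10.3 and 11.1 CPM combined (4.34 ± 0.29; adjusted p = 2.54e-10), and CIITA, the coactivator that switches class II genes on, rose by 0.53 ± 0.10. ATRA alone had taken HLA-DRA to 43.7, 44.3 and 48.6 CPM, above all 3 combined libraries. Of 16 costimulatory and checkpoint ligands 10 were higher and none lower; VSIR, the checkpoint ligand VISTA, rose from 32.3, 37.4 and 39.2 CPM to 179, 200.4 and 213 CPM (2.44 ± 0.10).

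Of 30 listed monocyte and macrophage surface genes 20 could be tested, of which 13 were higher and 2 lower (median 0.82, lowest change −1.11). CD14, CD68, CD163, MSR1 and MRC1 were among those too low to be tested. CD1D, which presents lipids, rose from 5.80, 6.86 and 8.07 CPM to 139, 153 and 159 CPM (4.41 ± 0.12), and the integrin subunits ITGAX and ITGAM rose by 2.46 ± 0.26 and 0.95 ± 0.11. TYROBP, the signalling adaptor of many myeloid receptors, rose by 1.74 ± 0.12. Of 13 measured chemokines and chemoattractant receptors 10 were higher and 1 lower. The receptors CCR1 and CCR2 rose by 2.45 and 2.43, whereas CXCR4, which retains blood cells in bone marrow, fell from 50.8, 67.6 and 63.3 CPM to 36.3, 19.9 and 21.4 CPM (−1.21 ± 0.16).

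Granule and lysosome genes were mostly higher too. Of 27 lysosome genes 23 were higher and 1 lower (median 0.59): PSAP, the precursor of saposins, rose from 253, 288 and 274 CPM to 1839.7, 2053 and 2150.0 CPM (2.89 ± 0.11), and the protease genes CTSL and CTSD by 2.79 ± 0.16 and 1.79 ± 0.14. Of 15 azurophil granule genes 11 were higher and 2 lower (median 0.41). BPI, which kills gram-negative bacteria, rose from 4.06, 3.69 and 2.71 CPM to 112, 119.8 and 134 CPM (5.17 ± 0.14), and SRGN, the granule proteoglycan, from 1574 to 7039 CPM (2.16 ± 0.14). LYZ, lysozyme, went the other way, from 198, 228 and 188 CPM to 144, 70.6 and 67.9 CPM (−1.11 ± 0.18), with combined replicate 1 closer to untreated than the others. In the NADPH oxidase, 3 of 6 measured subunits were higher. NCF1 rose by 3.87 ± 0.13, but it has near-identical pseudogene copies. CYBB, also listed, was too low to be tested, with 2, 4 and 2 untreated counts and 2, 1 and 3 combined counts.

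Of 25 myeloid transcription factors 14 were higher and 3 lower (median 0.50, and 0.32 with the mitochondrial ribosomal RNA share in the model). CEBPA and IRF8, drivers of myeloid and monocytic fate, rose by 0.74 ± 0.10 and 0.53 ± 0.09, ID1 by 2.01 ± 0.22, and FOSL2 fell, with a change of −1.48 ± 0.10. Genes of the HOX and KMT2A-target program did not move one way: 7 of 26 were higher and 6 lower, and at equal depth 3 and 4 of 24. The first 2 counts are not far above the background shares. Within that list MYC fell from 568, 579.8 and 492 CPM to 386, 348 and 369.7 CPM (−0.57 ± 0.09) and the HOX cofactor PBX3 changed by −0.49 ± 0.08.

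**Figure D3:**
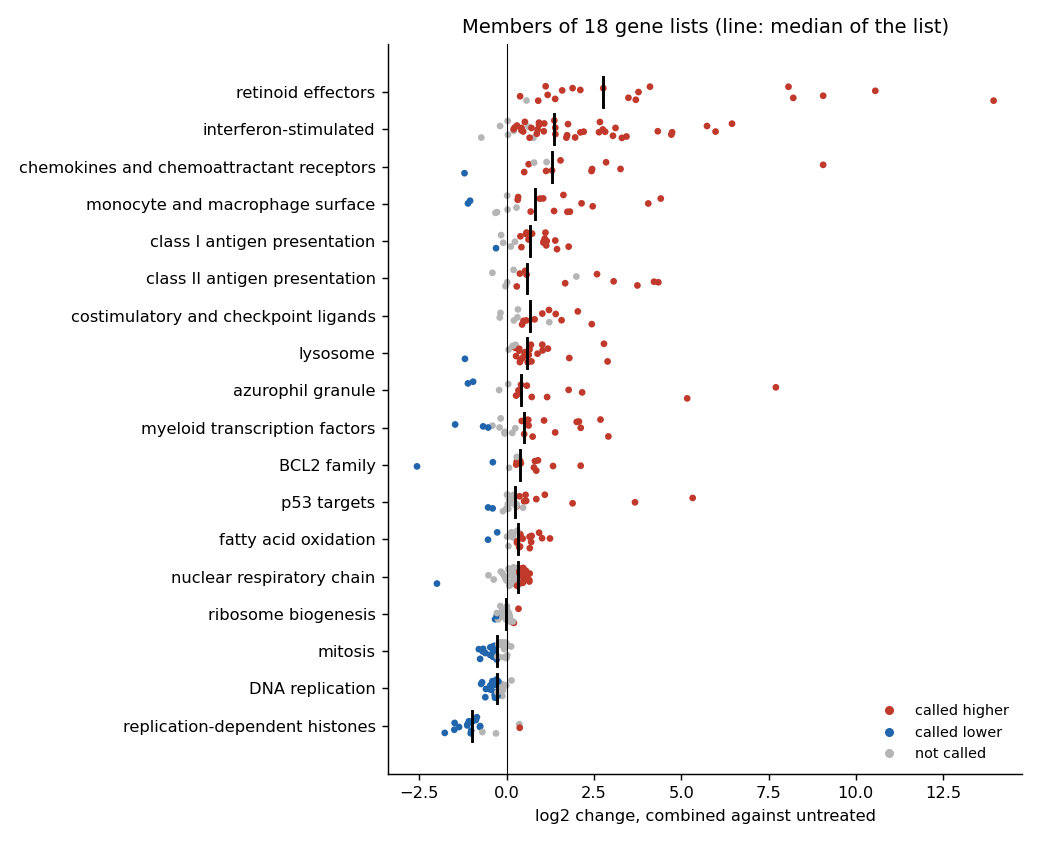
Log2 change in combined against untreated cells for each measured member of 18 gene lists, 1 point per gene, with a black line at the median of the list. Retinoid effector and interferon-stimulated genes lie furthest to the right, with medians of 2.77 and 1.36, and DNA replication, mitosis and histone genes lie left of 0.

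Genes of replication and mitosis were called lower in part, and none was called higher. Of 36 DNA replication genes 21 were lower and none higher (median −0.27), and of 32 mitosis genes 16 were lower and none higher (median −0.28). POLA1, the polymerase that primes replication, fell from 55.0, 56.2 and 58.0 CPM to 32.0, 35.5 and 34.6 CPM (−0.73 ± 0.08), and MKI67, the proliferation antigen, from 576, 579.6 and 721 CPM to 351, 405 and 351 CPM (−0.76 ± 0.12). With the mitochondrial ribosomal RNA share in the model 29 replication genes (median −0.45) and 19 mitosis genes (median −0.43) were lower. Leaving out combined replicate 1 brought the replication count to 12, and leaving out untreated replicate 1 brought it to 13. Among 22 G1 regulators 5 were higher and 5 lower, near the background shares. CDKN1A, the inhibitor p21, rose from 257, 234 and 237 CPM to 511, 494 and 549 CPM (1.09 ± 0.09). CDK6 changed by −0.79 ± 0.11 and E2F8 by −1.65 ± 0.13.

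In the BCL2 family, which holds both guardians and executioners of apoptosis, 11 of 15 members were higher and 2 lower (median 0.39). The lower ones were BCL2 and its relative BCL2L2, with log2 changes of −2.57 and −0.40. BCL2A1, another anti-apoptotic member, rose by 2.12 ± 0.38, and MCL1 rose from 229, 233 and 199 CPM to 360.4, 436 and 436 CPM (0.90 ± 0.09), and the pro-apoptotic BAK1 and BIK rose by 0.78 ± 0.08 and 0.81 ± 0.10. The count for this family was 6 higher and 1 lower with the mitochondrial ribosomal RNA share in the model, and the same without both replicates 3. Calls over all genes fell under both alternatives too. Of 26 p53 targets 10 were higher and 2 lower, with TP53I3 at 3.68 ± 0.12 and BTG2 at 1.89 ± 0.13; under each of these alternatives 6 were higher and 1 lower.

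Several metabolic lists changed under the alternatives, as did the calls over all genes. Of 74 nuclear genes of the respiratory chain 40 were called higher and 1 lower (median 0.31), led by NDUFC1, at 56.9, 56.2 and 55.2 CPM untreated and 85.1, 85.6 and 95.3 CPM combined (0.66 ± 0.08). With the mitochondrial ribosomal RNA share in the model 6 were higher and 1 lower (median 0.06), and without both replicates 3 the count was 7 higher. Replication-dependent histone genes were lower in 14 of 18 cases, with 1 higher (median −1.0); H4C3 went from 15.8, 20.3 and 26.4 CPM to 6.19, 10.1 and 5.96 CPM (−1.50 ± 0.20). These transcripts lack the usual poly(A) tail and the genes are near copies, and their count became 3 lower with the share in the model and 7 lower without both replicates 3. How much of these changes belongs to library composition was not tested.

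Fatty acid oxidation genes gave 14 higher and 2 lower of 24 (median 0.33), and 6 higher with the share in the model. Over all genes tested, calls higher fell from 3149 to 1977 with the share in the model. DECR1, a reductase needed for unsaturated fats, rose from 70.5, 69.6 and 67.5 CPM to 129.8, 131 and 134 CPM (0.93 ± 0.07), and SLC25A20, the carnitine carrier, by 1.24 ± 0.13. In glycolysis and sugar uptake 7 of 29 genes were higher and 5 lower, near the background shares (median 0.10, and −0.10 with the share in the model). SLC2A5, the fructose transporter, rose from 16, 13.7 and 16.3 CPM to 391, 500.2 and 565 CPM (4.98 ± 0.14), and LDHA changed by −0.48 ± 0.09. Of 31 genes of the integrated stress response and amino acid supply 6 were higher and 11 lower, and 1 and 9 with the share in the model; SLC7A11, the cystine transporter, fell from 58.5, 68.2 and 68.0 CPM to 19.1, 16.7 and 11.4 CPM (−2.02 ± 0.17). In ribosome biogenesis 2 of 32 genes were higher and 2 lower, and the median was −0.03, or −0.14 with the share in the model.

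Lists of other cell types were checked in the same libraries. Of 15 fibroblast, endothelial and epithelial markers, COL3A1, DCN, VWF, KDR and EPCAM had no count in the 6 libraries, and the summed level was 107 to 123 CPM untreated and 236 to 279 CPM combined. Most of that sum was PECAM1, an adhesion molecule that leukocytes share with endothelium, which went from 64.0, 69.8 and 62.9 CPM to 223, 190.4 and 203 CPM. The summed lymphoid markers were at 89.7 to 110 CPM untreated and 76.8 to 84.2 CPM combined, and CD3E, CD2 and KLRD1 had no count. Erythroid and megakaryocyte markers summed to 15.6 to 22.9 and 20.7 to 25.4 CPM, with HBB, PF4 and PPBP among those at 0.

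How the combined cells differ from cells given ATRA alone is the next question. The direct contrast called 304 genes higher (1.89% of genes tested) and 409 lower (2.54%). Both groups received the same ATRA, so this contrast holds the effect of doxycycline and the hairpin in its presence. ATRA against untreated called 4652 genes (28.9%) in the same model and shares the untreated libraries with the combined contrast.

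Higher in combined cells than with ATRA alone were S100A9, GBP5, IER3, SLPI, CD52 and TRIB1, the 6 largest that met the rule. GBP5 was at 4.32, 4.14 and 4.05 CPM with ATRA and 20.3, 17.3 and 15.9 CPM in combined libraries, a difference of 2.10 ± 0.21 (adjusted p = 4.69e-06). TRIB1, a pseudokinase that directs degradation of C/EBP factors, was at 26.9, 21.5 and 26.3 CPM and 35.6, 105 and 114 CPM (1.75 ± 0.26; adjusted p = 0.000237). IER3, an immediate early gene, was at 2.86, 2.23 and 2.70 CPM and 3.31, 14.7 and 15 CPM (2.03 ± 0.39; adjusted p = 0.00324). Combined replicate 1 was the lowest of its group in TRIB1 and IER3, by a wide margin. It lay above every ATRA library, which the naming rule required. Over all genes tested, 26.5% had no overlap between combined and ATRA libraries. Without combined replicate 1 the differences for TRIB1 and IER3 were 2.13 and 2.49.

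SLPI, a secreted inhibitor of leukocyte proteases, was at 4.26, 3.51 and 3.08 CPM with ATRA and 18.9, 10.5 and 8.35 CPM combined (1.80 ± 0.25; adjusted p = 0.000161). S100A9 was at 1.21, 0.850 and 0.675 CPM with ATRA alone and at 5.29, 3.93 and 3.47 CPM in combined libraries, a difference of 2.18 ± 0.31 (adjusted p = 0.000196), although at equal depth this call was lost (1.38; adjusted p = 0.253). CD52, a small surface glycoprotein of leukocytes, differed by 1.80 ± 0.27, and its call was also lost at equal depth (adjusted p = 0.153).

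Class II genes were lower than with ATRA alone: 10 of 15 were lower in combined cells and none higher (background 2.54% and 1.89%), with a median difference of −0.92. HLA-DRA was at 43.7, 44.3 and 48.6 CPM with ATRA and 12.5, 10.3 and 11.1 CPM combined (−2.0 ± 0.17; adjusted p = 9.94e-07). HLA-DPA1 was at 7.56, 6.37 and 8.96 CPM and 2.71, 1.28 and 1.19 CPM (−2.07 ± 0.31), and CIITA at 57.1, 49.0 and 56.0 CPM and 39.6, 35.4 and 37.9 CPM (−0.52 ± 0.10; adjusted p = 0.00279). The combined level of HLA-DRA thus lay between untreated and ATRA, with no overlap among the 3 groups. For combined against ATRA the naming rule required this. At equal depth 6 class II genes were called.

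The other 4 largest decreases against ATRA were NGFR, a neurotrophin receptor (−2.09 ± 0.25), ADAM28, a metalloprotease (−2.03 ± 0.22), the galectin LGALS2 (−1.94 ± 0.37) and SLITRK5, a neuronal membrane protein (−1.85 ± 0.10). SLITRK5 differed from the others in its pattern: it was at 112, 122 and 113 CPM untreated, 93.0, 90.7 and 101 with ATRA, 41.7, 31.4 and 33.0 with DOX and 29.1, 24.3 and 25.4 in combined libraries. Its low levels were thus in both groups that received doxycycline. Of 13 chemokines and chemoattractant receptors 4 were lower than with ATRA, none was higher and 9 were not called (median −0.06); CCR2 differed by −1.01 ± 0.13 and CCR1 by −0.70 ± 0.10. Interferon-stimulated genes, in contrast, gave 2 called higher and none lower of 45, with a median difference of 0.07, and retinoid effectors 1 higher and 2 lower of 19 (median 0.03).

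Against DOX alone, 1727 genes were higher in combined cells (10.7%) and 1327 lower (8.24%), and this contrast holds the effect of ATRA in cells that received doxycycline. DOX against untreated called 2446 genes (15.2%), a count that was 77 with the mitochondrial ribosomal RNA share in the model and 731 without untreated replicate 3. It was 659 without DOX replicate 2, 1462 without DOX replicate 3 and 4326 without DOX replicate 1. PTGES, TGM2, CCL2, MLXIPL, GBP4 and RHBDL3 were the largest increases among genes that met the naming rule, and CSRP3, RGS18, S100A8, GPC3, TRAC and S100A9 the largest decreases. GPC3, a cell-surface proteoglycan, was at 1.51, 5.05 and 5.38 CPM with DOX and 0.481, 0.321 and 0.542 CPM combined (−3.04 ± 0.46). TRAC, the constant region of the T-cell receptor alpha locus, was at 3.18, 2.75 and 5.38 CPM and 0.541, 0.482 and 0.108 CPM (−3.0 ± 0.44). By list, 36 of 45 interferon-stimulated genes and 15 of 19 retinoid effectors were higher than with DOX alone (background 10.7%), with medians of 0.95 and 2.34.

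Whether ATRA had a different effect with doxycycline than without it was asked by the interaction, the ATRA effect under doxycycline minus the ATRA effect without. It was called for 43 genes (0.267%), 7 above 0 and 36 below. This count moved widely with the libraries used. It was 747 without DOX replicate 1, where 414 lay above 0 and 333 below, 129 without combined replicate 1 and 10 without ATRA replicate 3, and DESeq2 called 117. SAMHD1 was the only one of the 19 named genes with a called interaction that was called under all 19 alternatives run for it: ATRA took it from a mean of 108 to 1124 CPM without doxycycline and from 127 to 735 CPM with it, an interaction of −0.84 ± 0.12 (adjusted p = 0.00386).

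HLA-DQB1 and PTAFR were called in all but the equal-depth alternative. For HLA-DQB1, a class II gene with close copies, the levels were 0.773, 1.11 and 1.38 CPM untreated, 16.9, 16.7 and 14.7 with ATRA, 1.99, 4.12 and 1.92 with DOX and 6.19, 6.58 and 8.02 combined (−2.63 ± 0.36; adjusted p = 0.00251). PTAFR, the receptor of platelet-activating factor, rose under each single treatment, from a mean of 6.35 CPM to 19.8 with ATRA and 14.4 with DOX, and was at 14.7 CPM combined (−1.57 ± 0.25; adjusted p = 0.00739). OLMALINC, a long noncoding RNA, was lowest in the ATRA libraries: it was at 42.1, 40.5 and 44.8 CPM untreated, 22.1, 18.6 and 21.8 with ATRA, 43.3, 39.9 and 49.5 with DOX and 37.8, 42.5 and 47.2 combined (0.99 ± 0.15; adjusted p = 0.00472).

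For BCL2 the interaction was above 0 (0.82 ± 0.15; adjusted p = 0.0148). Its levels were 126, 126 and 132 CPM untreated, 15.9, 18.1 and 16.2 with ATRA, 108, 87.8 and 81.8 with DOX and 22.8, 21.4 and 20.2 combined, so DOX alone lowered it while the combined libraries lay above those with ATRA alone. The difference between combined and ATRA cells was 0.37 ± 0.11 and did not pass the threshold (adjusted p = 0.0622). The interaction of HLA-DRA, −2.67 ± 0.52 (adjusted p = 0.0245), rested on low DOX levels of 0.318, 1.43 and 0 CPM and was −0.97 without DOX replicate 2 (adjusted p = 0.873).

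**Figure D4:**
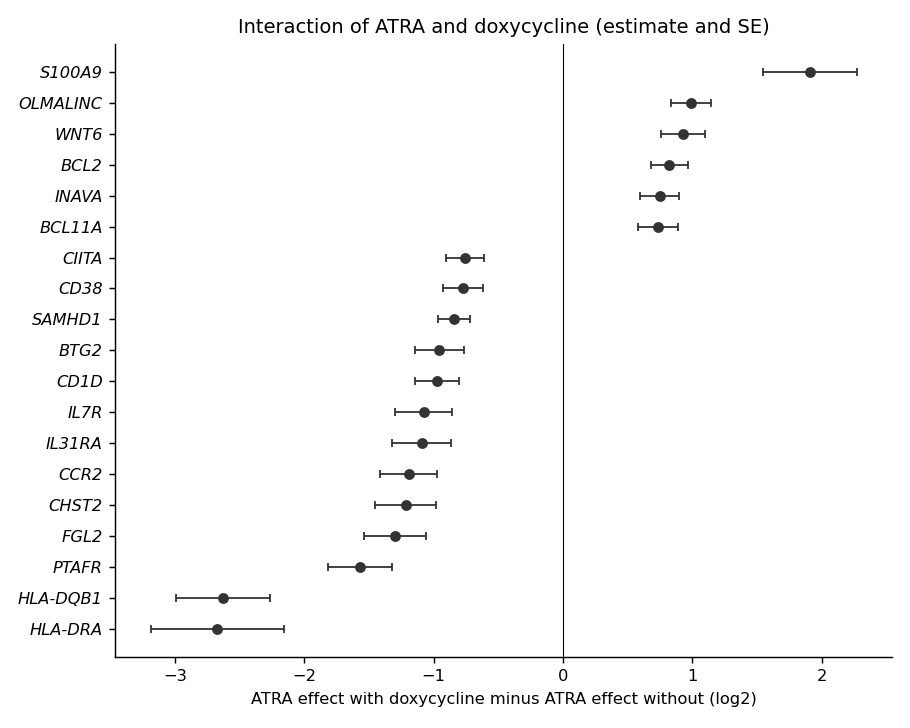
Interaction of ATRA and doxycycline for the 19 named genes with a called interaction, with the estimate and its standard error on the log2 scale. Values below 0 mean a smaller rise or a larger fall with ATRA when doxycycline was present; HLA-DRA and HLA-DQB1 are lowest at −2.67 and −2.63 and S100A9 highest at 1.91.

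A gene can also exceed both single treatments. Genes were called here when the combined group differed from ATRA and from DOX in the same direction, by the larger of both p-values. This held for 28 genes above both (0.174%) and 4 below both (0.0248%). PTGES, GBP5, TRIB1, SELENOP, DPYSL2 and ARHGEF40 were called under all 19 alternatives. SELENOP, the selenium carrier, was at 3.77, 4.54 and 4.20 CPM untreated, 12.8, 14 and 14.1 with ATRA, 10.7, 10.2 and 9.21 with DOX and 36.1, 32.7 and 24.9 combined. Its difference was 1.21 ± 0.13 from ATRA and 1.62 ± 0.14 from DOX, and the adjusted p of the joint call was 3.73e-05; it overlaps CCDC152 on the other strand, and since the strand setting is not given the reads of both cannot be told apart. Its interaction was −0.08 ± 0.21 (adjusted p = 0.934), so the log2 changes of the single treatments, 1.70 and 1.29, stood beside a combined change of 2.91.

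PTGES differed by 1.56 ± 0.14 from ATRA, and GBP5 by 2.10 ± 0.21 from ATRA and 3.87 ± 0.27 from DOX (joint adjusted p = 2.52e-05). TRIB1 was at 16.4, 16 and 15 CPM with DOX, and at 26.9, 21.5 and 26.3 CPM with ATRA, while the combined libraries reached 35.6, 105 and 114 CPM (joint adjusted p = 0.00254). RARB, which holds the direct repeat in its promoter, differed by 1.52 ± 0.29 from ATRA and 2.80 ± 0.35 from DOX (joint adjusted p = 0.0327). Its interaction of 2.15 ± 0.50 missed the threshold (adjusted p = 0.0749), and the joint call was lost in 9 of 18 alternatives. SLPI (1.28 ± 0.25 from DOX) lost it in 11 of 19.

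The 4 genes below both single treatments were DPYSL2, ARHGEF40, FLNA and NKD2. DPYSL2, which binds tubulin, fell from 76.5, 67.6 and 75.3 CPM untreated to 44.5, 46.6 and 43.3 with ATRA, 50.2, 51.3 and 38.0 with DOX and 27.1, 26.3 and 25.8 combined (joint adjusted p = 0.000661). ARHGEF40, a guanine nucleotide exchange factor, fell from 83.1, 84.6 and 93.7 CPM to 44.6, 43.2 and 48.8 with ATRA, 57.2, 59.8 and 44.2 with DOX and 30.1, 27.0 and 28.2 combined (joint adjusted p = 0.00332). In both genes the combined libraries lay below all 9 others, which the naming rule required for the ATRA and DOX libraries. FLNA, the actin crosslinker filamin A, was at 577, 592 and 593 CPM untreated and 380.5, 298 and 327 CPM combined (joint adjusted p = 0.0409), and its joint call was lost in 12 of 19 alternatives.

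**Figure D5:**
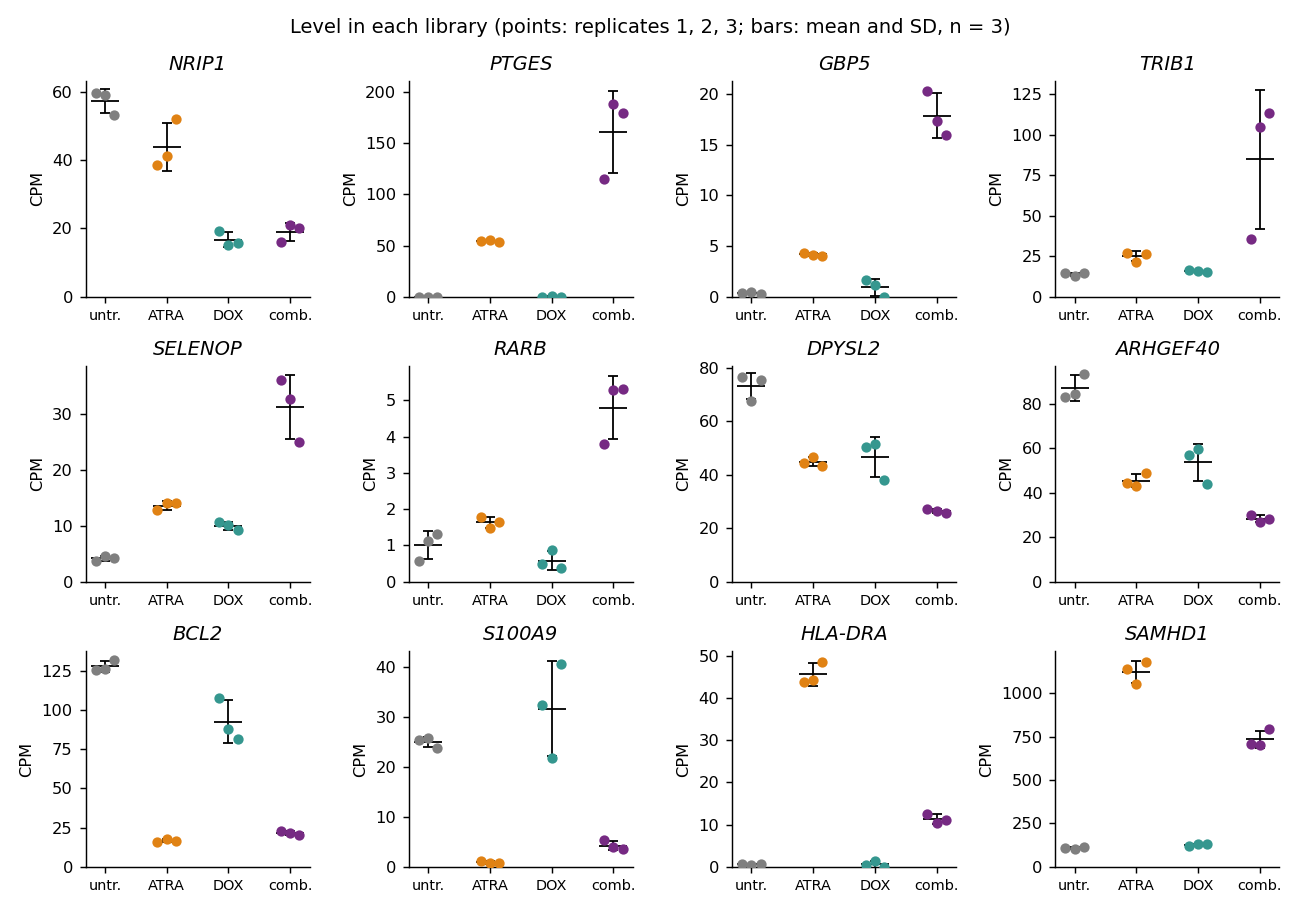
CPM of 12 genes in each library, 3 points per group with the mean and SD (n = 3), from untreated (untr.) to combined (comb.). PTGES, GBP5, TRIB1, SELENOP and RARB are highest, and DPYSL2 and ARHGEF40 lowest, in the combined libraries; HLA-DRA and SAMHD1 lie between untreated and ATRA, and NRIP1 is low in both groups with doxycycline.

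The changes of each treated group against untreated can be set side by side, bearing in mind that all share the untreated libraries. Among retinoid effectors, TGM2 changed by 10.56 in combined and 10.69 in ATRA libraries, HIC1 by 3.78 and 3.76, SAMHD1 by 2.77 and 3.38, and CD38 by 3.70 and 3.90. For lists, the medians in combined, ATRA and DOX libraries were 2.77, 3.38 and 0.49 for retinoid effectors, 1.36, 1.09 and 0.23 for interferon-stimulated genes, 0.68, 0.56 and 0.22 for the class I pathway, 0.57, 1.49 and 0.23 for the class II pathway and −0.27, −0.29 and −0.11 for DNA replication. For nuclear respiratory chain genes they were 0.31, 0.18 and 0.41, with 40, 15 and 44 called higher.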

How the data were processed

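RNA of 12 MOLM14 cultures, 3 biological replicates in each of 4 groups per the labels, was sequenced paired-end on a NovaSeq. The authors deposited 1 table of raw counts per gene. FastQC, STAR, HTSeq and GRCh38 are named in the submitters' processing notes; versions and the strand setting are not given in the sources used here.

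Groups were taken from the labels. Of 61487 identifiers, 61369 were paired with a symbol. Genes with low counts were filtered with edgeR 4.0.16 in R 4.3.3, leaving 16104. Counts were scaled by TMM, and all 4 groups were fitted in 1 quasi-likelihood model; p-values were adjusted by Benjamini and Hochberg across the 16104 genes, and a gene was called under 0.05. A call beyond both single treatments used the larger p of combined against ATRA and against DOX. CPM are counts scaled to each library's TMM-adjusted total over the genes tested. The script was checked on simulated counts. Alternatives were DESeq2 1.42.0, library size alone, no low-count filter, the compared groups alone, a replicate block, each library left out, equal depth, and a mitochondrial ribosomal RNA term. Leaving out both replicates 3 was chosen after seeing the data. p-values measure the spread between these cultures, and intervals and floors cover counting error only.

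The comparison and the gene lists were chosen with earlier results of these data known. Named genes were NRIP1, the 12 largest called increases and decreases against untreated, and the 6 largest each way in the other contrasts, with a mean of at least 2 CPM and, except in the interaction, no overlap between groups. In each list, up to 6 members with the smallest adjusted p were added, and members that show a list's range. Results for some genes are not reported here.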

Additional observations from a re-analysis of the deposited data

Results flagged for a closer look

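In 19 named genes the ATRA effect with doxycycline differed from the ATRA effect without it, by the interaction term in edgeR's quasi-likelihood test at an adjusted p under 0.05. In 13 of them the interaction was below 0 on the log2 scale. Class II genes and their coactivator were among these, with HLA-DRA at −2.67, HLA-DQB1 at −2.63 and CIITA at −0.76. Receptors and surface molecules were PTAFR at −1.57, CCR2 at −1.19, IL31RA at −1.09, IL7R at −1.08, CD1D at −0.98 and CD38 at −0.77. The others below 0 were FGL2 at −1.30, CHST2 at −1.22, BTG2 at −0.95 and SAMHD1 at −0.84. In 6 genes it was above 0: S100A9 at 1.91, OLMALINC at 0.99, WNT6 at 0.93, BCL2 at 0.82, INAVA at 0.75 and BCL11A at 0.74. SAMHD1 was called in all 19 alternatives run, and each of the other 18 genes lost its call in at least 1.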

How the results depend on the processing

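No named gene reversed its direction in the 20 alternatives run. Of the calls of named genes, 166 of 196 against untreated, 36 of 66 against ATRA and 128 of 157 against DOX held in every alternative. At equal depth 3338 genes were called against untreated, 363 against ATRA, 1866 against DOX, 18 in the interaction, 18 beyond both single treatments, 2681 for ATRA alone and 1201 for DOX alone. Without both replicates 3 the counts were 3349 against untreated, 366 against ATRA, 8 in the interaction, none of them above 0, 13 beyond both and 731 for DOX alone. The mitochondrial ribosomal RNA term left 3363 against untreated and 77 for DOX alone, of which 85.7% were higher. DESeq2 called 117 interactions and 51 beyond both, library size alone 24 and 20, and no low-count filter 189 (40.7% above 0) and 73. DOX against untreated called 1573 when fitted on its groups alone. Leaving out 1 library gave 4392 to 6858 against untreated, 264 (without ATRA replicate 3) to 1028 (without DOX replicate 1) against ATRA, 2195 to 3898 against DOX and 10 (without ATRA replicate 3) to 747 (without DOX replicate 1; 55.4% above 0) in the interaction. The range was 12 (without ATRA replicate 2) to 94 (without combined replicate 1; 67.0% higher) beyond both, 3455 to 5344 for ATRA alone and 659 to 4326 for DOX alone. Interactions without combined replicate 1 numbered 129, 27.9% of them above 0. To look for pairing, the deviations of log2 CPM from the mean of each library's group were correlated between groups. For same-numbered libraries these deviations correlated between −0.24 and 0.27. By this measure 0 of 6 untreated and combined libraries correlated best with their own number, so the numbers were not taken as pairs. With a replicate block the counts were 6083 against untreated, 729 against ATRA, 3052 against DOX, 54 in the interaction, 40 beyond both, 4677 for ATRA alone and 2349 for DOX alone. The causes of these shifts were not tested.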
